A study of Homo sapiens with 2 samples.

Results

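The genes described here are 9 genes at the centre of the p53 response, chosen by name: MDM2, MDM4, CDKN1A, GADD45A, BTG2, RRM2B, TP53INP1, ZMAT3 and TP53I3. All 9 had a row among the 21115 genes of the deposited table. They were measured by RNA sequencing in HCT116, a long-established cell line from a human colorectal cancer. The cells had spent 8 h either in 1 µM of the compound CB-5083 or, as the control, in its solvent DMSO. The target of CB-5083 is p97, product of the VCP gene, an ATPase that extracts ubiquitinated proteins for degradation. Each treatment was 1 library, so no difference between treatments has a replicate check or a test, and intervals cover counting error only.

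The p53 protein is a transcription factor that is kept scarce by MDM2, a ubiquitin ligase that marks it for the proteasome, and by MDM4, a relative of MDM2 that binds and blocks it. Stress frees p53, which then switches on genes that halt the cell cycle, repair DNA, supply nucleotides or prepare cell death, and also MDM2 itself, which closes a negative feedback loop. HCT116 is known to retain functional p53 and is widely used to study it. Several of these targets, among them CDKN1A and GADD45A, can also be switched on without p53, by stress-responsive transcription factors.

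MDM2 has an upstream promoter and a second one inside its first intron, and the intronic one is the promoter known to respond to p53. The stretches below are shown because they set that p53-responsive promoter beside the start regions of CDKN1A, which differed more between the libraries, and of BTG2, which differed less. Each is the 250 bases before a transcription start, from RefSeq on GRCh38, plus strand, with matches to a p53 half-site (up to 1 mismatch outside its central core) and to the AP-1 site TGANTCA in capitals. MDM2 lies at chr12:68808767-68809016, CDKN1A at chr6:36678464-36678713 and BTG2 at chr1:203305269-203305518.
MDM2: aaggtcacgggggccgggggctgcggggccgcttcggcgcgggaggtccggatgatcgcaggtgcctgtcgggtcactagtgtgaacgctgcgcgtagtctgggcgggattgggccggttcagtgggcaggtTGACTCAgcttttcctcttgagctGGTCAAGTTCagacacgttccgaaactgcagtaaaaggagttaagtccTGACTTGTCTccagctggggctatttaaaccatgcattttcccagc
CDKN1A: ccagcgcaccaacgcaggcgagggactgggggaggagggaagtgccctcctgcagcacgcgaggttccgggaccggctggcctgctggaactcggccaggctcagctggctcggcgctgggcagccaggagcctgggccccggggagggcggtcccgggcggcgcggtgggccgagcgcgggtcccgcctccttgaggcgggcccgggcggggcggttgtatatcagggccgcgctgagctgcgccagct
BTG2: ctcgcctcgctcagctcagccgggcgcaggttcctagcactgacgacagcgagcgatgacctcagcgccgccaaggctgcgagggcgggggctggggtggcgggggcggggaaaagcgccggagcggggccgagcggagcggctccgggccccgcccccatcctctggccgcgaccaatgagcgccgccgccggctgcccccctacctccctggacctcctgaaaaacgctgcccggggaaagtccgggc
The MDM2 stretch held 2 half-site matches, GGTCAAGTTC at 94 to 85 bases and TGACTTGTCT at 46 to 37 bases before the start, and 1 AP-1 match. The CDKN1A and BTG2 stretches held no such matches. Sites farther from a start, or with a changed central core, were not searched for. The absence of matches therefore does not show that CDKN1A and BTG2 lack p53 sites. RefSeq start windows of 300 bases, running 250 bases before to 50 after a start, were at hand for 6 of the 9 genes, 10 windows in all, and GADD45A, RRM2B and TP53INP1 had none. Of the 6 genes, 1 had a half-site match with up to 1 mismatch and 1 an AP-1 match, in both cases MDM2. Among 35116 such windows of all genes, searched on both strands, 32.6% held the former and 7.71% the latter. No window of the 6 genes held an exact half-site (6.63% of all windows) or the C/EBP-ATF element TGATGNAA (3.62%). A match describes letters only. The counts were given per gene, so transcripts from the MDM2 promoters could not be told apart.

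Levels are given as CPM, a gene's count relative to the total of its library, on a scale set by the trimmed mean of M-values (TMM), which equalises the bulk of genes between libraries. A gene was tested against the threshold when it reached 5 CPM in at least 1 library, and it was called higher or lower when (CB-5083 + 1) over (DMSO + 1), in CPM, was at least 2-fold away from 1. The DMSO library held 29273684 and the CB-5083 library 31997660 estimated counts. Of 9543 genes tested, 689 (7.22%) were called higher and 469 (4.91%) lower with CB-5083, and the median log2 ratio of all tested genes was 0.09. With library totals in place of TMM the median of all genes shifted by -0.33 on the log2 scale and the calls became 371 higher (3.86%) and 994 lower (10.3%), so the sign of small ratios depends on the scaling. The epithelial markers EPCAM, KRT8 and KRT18 were at 433, 278 and 292 CPM with DMSO, whereas the intestinal markers CDX2 and KRT20 reached at most 3.76 and 1.37 CPM, and VIL1 and CEACAM5 had 1 estimated count in a single library and 0 in the other. Of 11 markers of blood, stromal, endothelial, muscle and liver cells, 1 (COL1A1, at most 3.48 CPM) reached 1 CPM, and PTPRC, CD3E, CDH5 and HBB were listed at 0 in both libraries.

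Of the 9 genes, 8 were tested, and 2 of these were called higher with CB-5083 (25%, beside 7.22% of all genes), none lower (beside 4.91%) and 6 neither. The 2 were the arrest genes GADD45A and CDKN1A. In RNA from a whole culture, more cells with a transcript and more transcript per cell cannot be told apart. MDM2 came next and stayed short of 2-fold, and the other tested genes lay within 1.5-fold. The median log2 ratio of the 8 was 0.51, beside 0.09 for all genes. With library totals the 2 stood beside 3.86% of all genes and with the authors' scaling beside 6.11%. At a 1.5-fold threshold 3 of the 8 were higher, beside 17.4% of all genes, and at 3-fold 1 was, beside 2.57%. TP53I3 stayed under 5 CPM in both libraries and was not tested. 

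**Figure D1:**
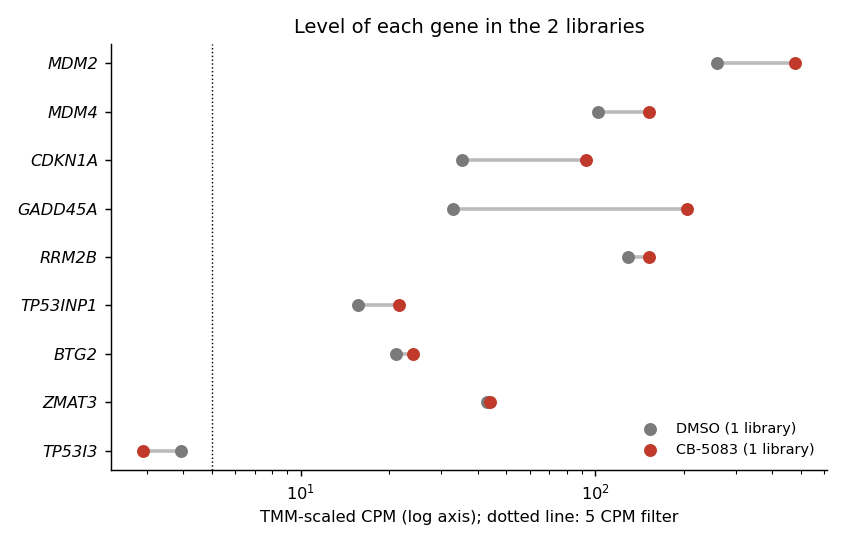
Level of the 9 genes (rows) in TMM-scaled CPM on a log axis, with 1 point for the DMSO library and 1 for the CB-5083 library, and a dotted line at the 5 CPM filter. The points of GADD45A (32.9 and 205 CPM) and CDKN1A (35.2 and 93.2 CPM) lie farthest apart, those of ZMAT3 (43.1 and 44.1 CPM) almost coincide, and TP53I3 lies below the filter in both libraries.

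The negative regulators of p53 were both somewhat more abundant with CB-5083. MDM2, on chromosome 12 from 69201971 to 69239212 in hg19, had 8566 and 13557 estimated counts in the respective libraries, DMSO first, or 260 against 477 CPM. That is a 1.84-fold difference (95% counting interval 1.79 to 1.89), and 90.7% of the tested genes had a lower ratio. Its log2 ratio of 0.87 fell to 0.53 with library totals, so under none of the scalings run did MDM2 reach 2-fold. MDM4, on chromosome 1 from 204485507 to 204677661, was at 102 against 153 CPM (1.49-fold, 1.43 to 1.56). The log2 ratio of MDM4, 0.57, fell to 0.23 with library totals. The locus of MDM4 as listed reaches over that of LRRN2, which was at 0.273 CPM or less in both libraries. The fold of MDM2 was 1.23 times that of MDM4 (1.17 to 1.30, normal approximation on log counts, counting error only), a ratio that no scaling of the libraries alters. Among 25 regulators of p53, all of them tested, none was called in either direction, beside 7.22% of all genes higher and 4.91% lower. The median log2 ratio of the 25 was 0.39 (0.05 with library totals). MDM2 had the highest ratio of that list. RCHY1, another ubiquitin ligase of p53, was at 59.7 against 101 CPM (1.69-fold, 1.596 to 1.79). The coactivator gene CREBBP was at 42.4 against 63.7 CPM (1.504-fold, 1.40 to 1.61). RPL5, a ribosomal protein that can bind and inhibit MDM2, was at 1307 against 1942 CPM (1.49-fold, 1.47 to 1.505).

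CDKN1A encodes p21, which binds cyclin-dependent kinases and stops the cycle. It lies on chromosome 6 from 36644237 to 36655116 and had 1161 estimated counts in the DMSO library and 2650 in the other. The level was 35.2 CPM for the solvent and 93.2 CPM for the inhibitor, a 2.65-fold difference (2.47 to 2.84). CDKN1A kept its call under every scaling and pseudocount run, with log2 ratios from 1.04 (library totals) to 1.40 (no pseudocount), and it ranked 350th of 9543 from the highest. The fold of CDKN1A was 1.44 times that of MDM2 (1.34 to 1.55).

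GADD45A encodes a small stress protein that acts on kinases of the cell cycle and of the stress pathways. It lies on chromosome 1 from 68150860 to 68154021 and had 1083 and 5823 estimated counts. From 32.9 CPM with DMSO against 205 CPM with CB-5083 it differed 6.24-fold (5.84 to 6.66), the highest ratio of the 9 genes. It ranked 59th of 9543, with a log2 ratio of 2.60 that lay between 2.27 and 2.64 over the scalings and pseudocounts run. The fold of GADD45A was 2.36 times that of CDKN1A (2.14 to 2.59).

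BTG2 encodes an antiproliferative protein that recruits a deadenylase to messenger RNAs and is a direct p53 target. On chromosome 1 from 203274664 to 203278729, it had nearly the same number of estimated counts in both libraries, 693 and 686, or 21.03 against 24.1 CPM (1.15-fold, 1.03 to 1.28). On the log2 scale its ratio was 0.19 with TMM but -0.14 with library totals, so its direction is not determined. The fold of CDKN1A was 2.31 times that of BTG2 (2.03 to 2.62), which holds whatever the scaling.

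RRM2B encodes the p53-inducible small subunit of ribonucleotide reductase, which supplies deoxynucleotides outside S phase. It lies on chromosome 8 from 103216729 to 103251346 and was at 130 against 152 CPM (1.18-fold, 1.13 to 1.23), with a log2 ratio of 0.23, which became -0.11 with library totals. TP53INP1, whose product promotes autophagy and p53 activity, lies on chromosome 8 from 95938200 to 95961615 and was at 15.6 against 21.5 CPM (1.38-fold, 1.22 to 1.55). Its log2 ratio was 0.44 on the TMM scale and 0.11 with library totals. Both genes thus lay well inside the 2-fold limits.

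ZMAT3, also called WIG1 or PAG608, encodes a zinc finger protein that binds RNA. On chromosome 3 from 178735011 to 178789656, it was at 43.1 against 44.1 CPM (1.02-fold, 0.948 to 1.11), and the interval held a fold of 1. The log2 ratio, 0.03 with TMM, was -0.30 with library totals. TP53I3, or PIG3, encodes a quinone oxidoreductase linked to oxidative stress in p53-driven death. On chromosome 2 from 24300303 to 24308085, it had 129 and 83 estimated counts, or 3.91 against 2.92 CPM (1.34-fold lower, 1.01 to 1.79). TP53I3 was the one gene of the 9 with a ratio below 0 under each of the scalings and pseudocounts run, from -0.59 to -0.32 on the log2 scale. It is also the gene with the fewest counts, and its listed locus overlaps that of LOC375190, at 0.729 against 0.176 CPM.

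**Figure D2:**
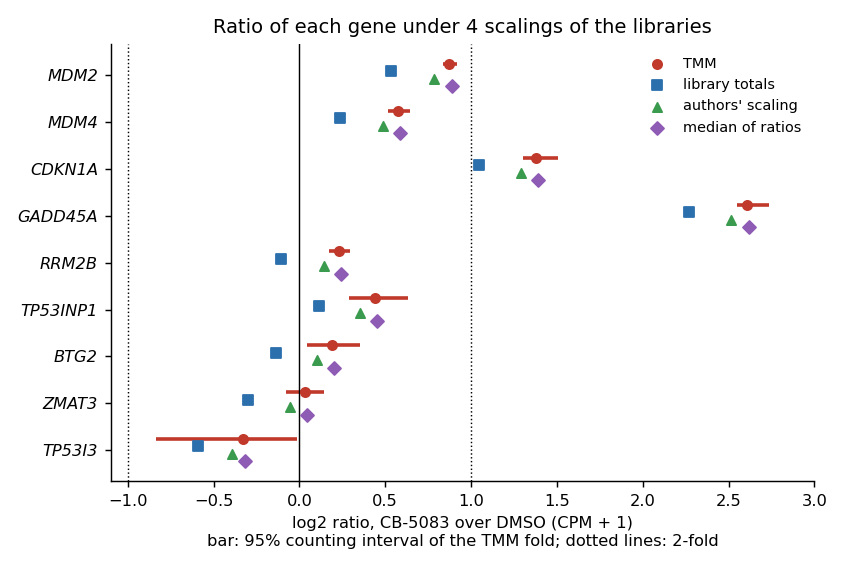
Log2 ratio of CB-5083 over DMSO (horizontal axis, with a pseudocount of 1 CPM) for the 9 genes under 4 scalings of the libraries, with the 95% counting interval of the TMM fold as a bar and dotted lines at 2-fold. GADD45A and CDKN1A lie beyond 2-fold under all 4 scalings, and RRM2B, BTG2 and ZMAT3 lie on either side of 0 depending on the scaling.

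**Figure D3:**
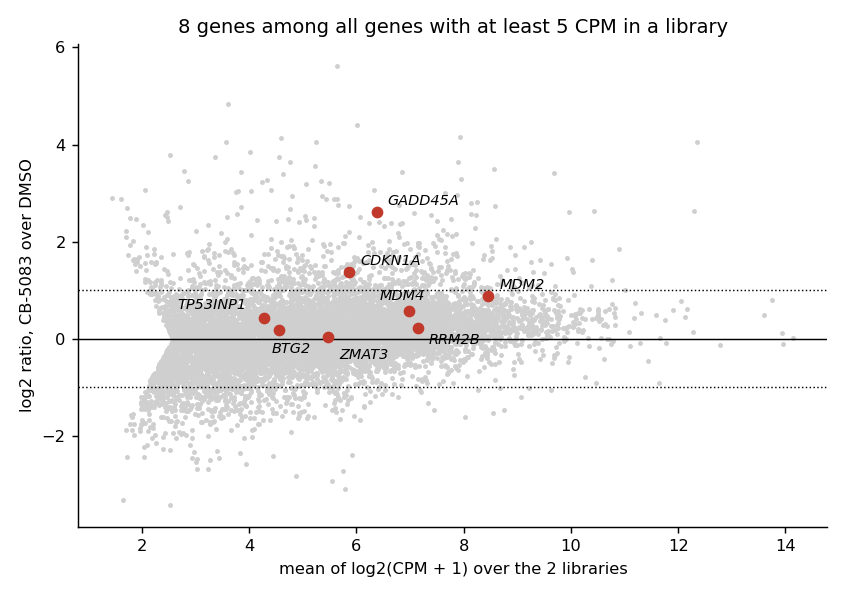
Log2 ratio of CB-5083 over DMSO (vertical axis) against the mean log2(CPM + 1) of the 2 libraries (horizontal axis) for 9543 tested genes in grey and 8 of the described genes in red, with dotted lines at 2-fold. GADD45A lies near the upper edge of the cloud, at rank 59, while ZMAT3, BTG2 and RRM2B lie within its bulk.

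To compare levels between genes, CPM were divided by the median length of the GENCODE transcripts that carry the gene's RefSeq accessions. With DMSO, RRM2B had the highest level per kilobase (80.3 CPM per kb), ahead of GADD45A (36.4), MDM2 (20.6), CDKN1A (16.4), MDM4 (10.3), BTG2 (7.75), ZMAT3 (6.98), TP53INP1 (2.77) and TP53I3 (2.39). With CB-5083, GADD45A moved to the top at 227 CPM per kb, above RRM2B at 94.4, and CDKN1A at 43.5 passed MDM2 at 37.8, while the order of the other 5 was the same. Transcripts of RRM2B range from 0.900 to 4.93 kb and those of ZMAT3 from 2.94 to 9.41 kb. Those of GADD45A range from 0.753 to 1.496 kb, so the places of these genes are uncertain. The length used for MDM2 was that of 1 transcript of 12.6 kb, and a shorter one would give MDM2 a higher level per kilobase. The order of MDM2 and CDKN1A is therefore uncertain as well. With 1 library each, neighbours in these orders have no replicate spread to be compared with.

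The families of these genes show how far each ratio was shared by relatives. Both measured members of the GADD45 family were called higher, beside 7.22% of all genes. GADD45B was at 4.58 against 35.9 CPM (7.83-fold, 6.60 to 9.35), and GADD45G was listed at 0 in both libraries. GADD45B reached 5 CPM only in the CB-5083 library. In the BTG and TOB family, 1 of 5 tested genes was called higher (20%, beside 7.22% of all genes) and none lower (beside 4.91%). BTG1, the close relative of BTG2, was at 34.1 against 379 CPM (11.1-fold, 10.4 to 11.8). BTG3, TOB1 and TOB2 lay within 2-fold, at log2 ratios of 0.63, -0.09 and 0.40. A high ratio in BTG1 thus stood beside one near 0 in BTG2.

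Of 5 tested CDK inhibitors, 2 were called higher (40%, beside 7.22% of all genes) and 1 lower (20%, beside 4.91%). CDKN2B, which encodes the CDK4 and CDK6 inhibitor p15, was at 5.13 against 11.4 CPM (2.22-fold, 1.83 to 2.69), at a log2 ratio of 1.01, or 0.71 by library totals. CDKN2C, encoding p18, went the other way at 5.37 against 1.83 CPM (2.94-fold lower, 2.14 to 4.08). It reached 5 CPM only in the DMSO library, so the filter admitted it through the library where it was high. CDKN1B, encoding p27 and nearest to CDKN1A in function, was at 41.4 against 57.4 CPM (1.39-fold, 1.29 to 1.49). CDKN2A had a log2 ratio of 0.34, and CDKN1C and CDKN2D stayed under 5 CPM. CDKN1A was thus the only one of the 7 listed inhibitors called higher both with TMM and with library totals (3.86% of all genes by the latter).

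The 3 ribonucleotide reductase genes were alike in ratio, RRM1 at 339 against 378 CPM (1.11-fold, 1.08 to 1.14) and RRM2 at 770 against 940 CPM (1.22-fold, 1.199 to 1.24), beside 1.18-fold for RRM2B. TP53INP2, the relative of TP53INP1, was at 1.52 against 1.57 CPM, under the filter. ZMAT2 was at 90.9 against 125 CPM (1.37-fold, 1.31 to 1.44), and ZMAT5 stayed near 1 CPM. Among the quinone oxidoreductases beside TP53I3, CRYZ was at 65.4 against 35.1 CPM (1.86-fold lower, 1.73 to 2.01), whereas NQO2 was at 20.99 against 34.8 CPM (1.66-fold, 1.502 to 1.83). CRYZL1, VAT1 and NQO1 had log2 ratios of 0.32, -0.01 and -0.04.

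**Figure D4:**
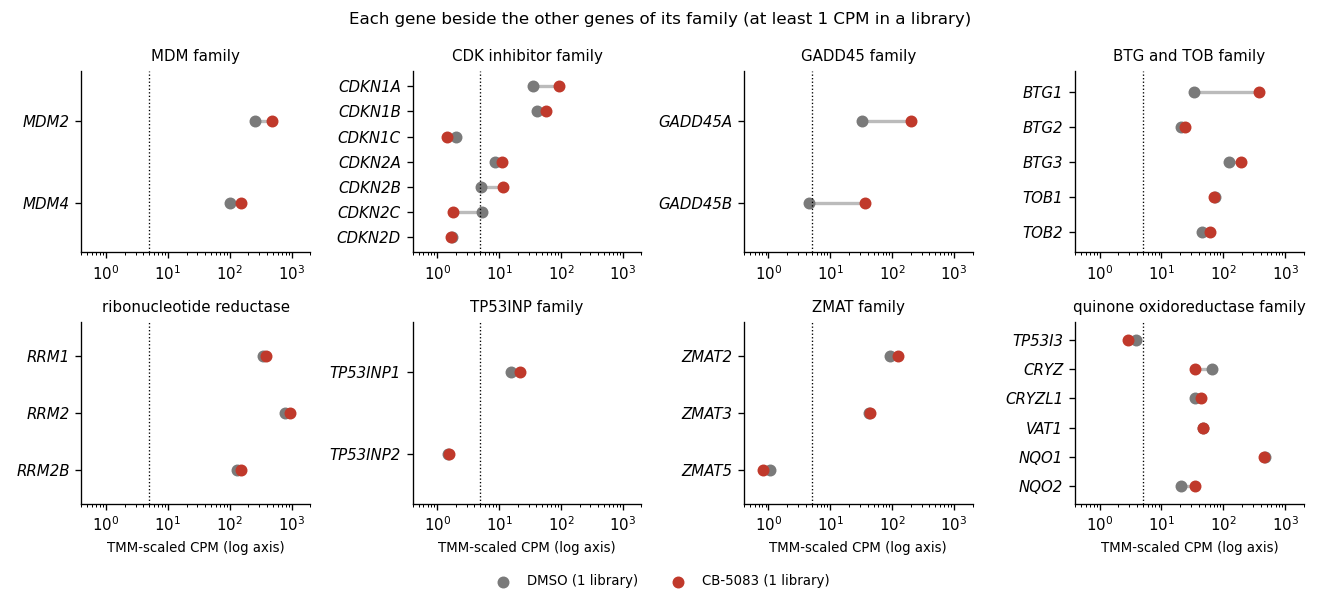
Level in TMM-scaled CPM (log axis) with DMSO and with CB-5083, 1 library each, for the genes of 8 families with at least 1 CPM in a library, with a dotted line at 5 CPM. GADD45A and GADD45B are both far higher with CB-5083, BTG1 is and BTG2 is not, and the 3 ribonucleotide reductase genes hardly differ.

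The wider p53 programme was described with a list of 55 known p53 targets, which holds 8 of the 9 genes. Of 45 tested targets, 9 (20%) were called higher, none lower and 36 neither, beside 7.22% and 4.91% of all genes. GDF15, PLK3 and SESN2, among those called higher, were at 4.92, 4.01 and 3.28 CPM with DMSO. They reached 5 CPM only in the CB-5083 library, so the filter admitted them through the library where they were high. The median log2 ratio of the 45 was 0.22, beside 0.09 for all genes, and it turned to -0.12 with library totals. Without the 8 listed genes, 7 of 38 were higher and the median was 0.19. Of the 9 higher targets, 1, SESN2, is also on a list of 11 genes of the integrated stress response, the programme run by ATF4. All 10 tested genes of that list were called higher (9 with library totals), with a median log2 ratio of 3.23. CHAC1 (0.303 CPM with DMSO) and SESN2 were tested only through the CB-5083 library. The list is short, so the other higher targets cannot be taken to lie outside that programme. The part of that programme in the ratios of the higher targets, CDKN1A and GADD45A among them, was not tested.

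Lists by role were also drawn up, which overlap the list of 55 in part: E2F7 and ACAD11, called below, are not on it, and GDF15, a stress-induced cytokine called higher at 4.92 against 23.6 CPM (4.81-fold, 4.05 to 5.75), is on no list by role. The lists by role were chosen with earlier results of these data known, so a contrast between them is no test. Their counts stand beside 7.22% of all genes called higher and 4.91% lower (3.86% and 10.3% with library totals). Of 10 tested arrest targets 6 (60%) were higher and 4 neither, and the median log2 ratio was 1.202 (5 higher and a median of 0.87 with library totals). Besides BTG1, GADD45A and CDKN1A these were PLK2 and PLK3, polo-like kinases of the stress response, and E2F7, a repressor of E2F target genes. PLK2 was at 114 against 316 CPM (2.78-fold, 2.68 to 2.89) and PLK3 at 4.01 against 15.1 CPM (3.78-fold, 3.10 to 4.63). E2F7 was at 50.4 against 104 CPM (2.06-fold, 1.94 to 2.18), and its log2 ratio by library totals, 0.69, missed the threshold.

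Among 10 tested apoptosis targets 2 were higher, none lower and 8 neither (median 0.19, and -0.14 with library totals). The 2 were the death receptor gene TNFRSF10B at 91.2 against 509 CPM and the BH3-only gene PMAIP1 at 103 against 388 CPM. TNFRSF10A was at 9.59 against 18.9 CPM (1.97-fold, 1.71 to 2.27), short of the threshold at a log2 ratio of 0.91. AEN, an apoptosis-enhancing nuclease, was at 31.6 against 59.1 CPM (1.87-fold, 1.73 to 2.03). APAF1, the scaffold of the apoptosome, was at 33.7 against 21.1 CPM (1.59-fold lower, 1.44 to 1.76). STEAP3, a metalloreductase, was at 22.8 against 12.3 CPM (1.85-fold lower, 1.63 to 2.11). The best known p53 death genes BBC3 and BAX, encoding PUMA and the pore protein BAX, stayed under 5 CPM (both were named after their values were seen). BBC3, with 21 and 60 estimated counts, was at 0.637 against 2.11 CPM (3.31-fold, 1.99 to 5.73). BAX was at 4.37 against 4.93 CPM (1.13-fold, 0.887 to 1.43).

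None of 8 tested repair and nucleotide targets was called (median -0.23, and -0.56 with 1 lower with library totals). PCNA, the sliding clamp of DNA polymerases and a partner of p21, was at 516 against 285 CPM (1.81-fold lower, 1.76 to 1.86). POLH, a translesion polymerase, was at 31.1 against 20.3 CPM (1.53-fold lower, 1.38 to 1.70). On the TMM scale 3 of the 8 had a ratio above 0. The highest was that of POLK, another translesion polymerase, at 32.2 against 48.2 CPM (1.496-fold, 1.38 to 1.62), and RRM2B was also among them.

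Of 9 tested metabolism and autophagy targets 2 were higher and 7 neither, and their median was 0.27 (1 higher and -0.06 with library totals). SESN2, an inhibitor of mTORC1, was at 3.28 against 60.3 CPM, while its relative SESN1, also a p53 target, was at 21.3 against 15.8 CPM (1.35-fold lower, 1.199 to 1.52). ACAD11, an acyl-CoA dehydrogenase, was at 16.7 against 36.1 CPM (2.17-fold, 1.95 to 2.41), and its log2 ratio with library totals was 0.74. TP53INP1 and TP53I3 belong to this list.

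Downstream of p21, the DREAM complex silences cell cycle genes when CDK activity falls. None of 26 such genes, all tested, was called, beside 7.22% of all genes higher and 4.91% lower. A ratio below 0 was found for 20 of the 26, beside 42.6% of all genes, and the median log2 ratio was -0.30. With library totals the median was -0.64 and 5 of the 26 were lower, beside 10.3% of all genes. AURKA, a mitotic kinase, was at 143 against 74.7 CPM (1.91-fold lower), and LMNB1, encoding lamin B1, at 266 against 163 CPM (1.63-fold lower, 1.57 to 1.69). BUB1B, a spindle checkpoint kinase, was at 264 against 164 CPM (1.61-fold lower, 1.55 to 1.67). ORC1, part of the origin recognition complex, was at 38.6 against 24.7 CPM (1.56-fold lower, 1.42 to 1.71). RRM2, the most expressed of the list, was on the other side, as given above.

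Among 13 tested partners of p21 and of the RB pathway, CCND1 (810 against 354 CPM) was lower (7.69%, beside 4.91% of all genes). None was higher and 12 were neither. On the TMM scale 10 of the 13 had a ratio below 0, beside 42.6% of all genes. The median was -0.23, and -0.56 with library totals, by which 3 were lower, beside 10.3% of all genes. CDK1 and CCNA2 are also on the list of DREAM genes. RBL2, encoding the DREAM subunit p130, was at 51.1 against 31.7 CPM (1.61-fold lower, 1.49 to 1.75). CCNA2, cyclin A2, was at 277 against 187 CPM (1.49-fold lower, 1.44 to 1.54). The higher CDKN1A level thus stood beside ratios mostly below 0 among the genes p21 acts on or through, most of them within 2-fold. Whether p21 had a part in those ratios was not tested.

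**Figure D5:**
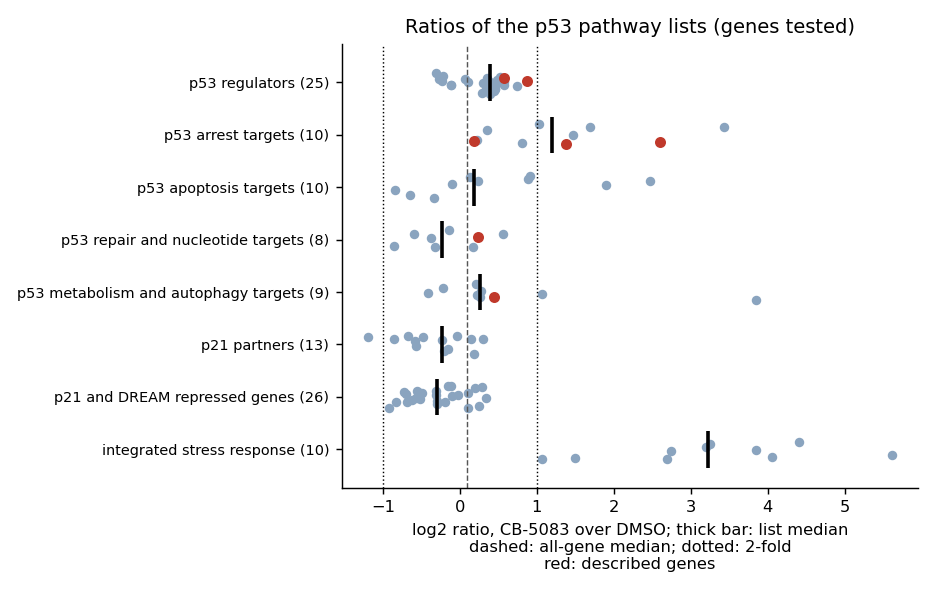
Log2 ratio of CB-5083 over DMSO (horizontal axis) of the tested genes of 8 lists (rows, number tested in brackets), with the described genes in red, a thick bar at each list's median, a dashed line at the median of all tested genes (0.09) and dotted lines at 2-fold. Arrest targets spread to the right with a median of 1.202, DREAM genes centre on -0.30, and all 10 stress response genes lie beyond 2-fold.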

How the data were processed

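RNA from HCT116 cells was sequenced as 1 library per treatment, with a stranded mRNA kit, as the labels' protocols say. RSEM 1.2.0 and hg19 come from the submitters' processing notes. No aligner is named in the sources used here. The deposited signal per gene is an estimated count that the authors scaled within each library: its 75th percentile was 999.73 and 999.89 in the DMSO and CB-5083 libraries. Dividing by the commonest low value, 1.079 and 1.1752, gave estimated counts, of which 78.1% and 78.5% of those up to 5 were whole within 0.02. Because 55.0% and 55.8% of all values above 0 were whole, they were treated as estimates and not as reads. 1 of 21116 rows, which holds no values, was left out.

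TMM factors were 1.1258 and 0.8883 (trims of 30% and 5%). Ratios used a pseudocount of 1 CPM, and intervals are exact (Clopper-Pearson, 95%) on rounded estimated counts. A value of 0 allows up to 3 counts, or 0.091 and 0.106 CPM. The planned design allowed no test. No source used here says whether counting used strand. File coordinates are hg19, with 1 added to each start. GENCODE release 29 gave transcript lengths. Transcript lengths and the RefSeq start windows are on GRCh38.

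The 9 genes and the 21 lists were chosen with earlier results of these data known. Named genes were the 9, their families at 1 CPM or more, and up to 6 genes per other list with the largest ratios plus the most expressed, of which those that bear on the results are given. The scripts were tested on simulated data. Alternative scalings, pseudocounts, filters, thresholds and list memberships were run 1 at a time. Software was scipy 1.17.1, numpy 2.4.6, matplotlib 3.10.9 and pandas 2.3.3 under Python 3.11.15.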

Additional observations from a re-analysis of the deposited data

How the results depend on the processing

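Of the 9 genes, 2 were higher under all 3 other scalings, both other pseudocounts and both other filters, and none was lower under any alternative run. At 3-fold 1 was higher (beside 2.57% of all genes) and at 1.5-fold 3 (beside 17.4%), MDM2 being the addition. The median log2 ratio of the tested genes, 0.51, was 0.17 with library totals, 0.42 with the authors' scaling and 0.44 with no filter, which added TP53I3. Among p53 targets 9 were higher under all 3 other scalings. With library totals 3.86% of all genes were higher, and with the authors' scaling 6.11%. At 1.5-fold 14 of 45 targets were higher, beside 17.4% of all genes. Targets called lower went from 0 to 2 of 44 with library totals (beside 10.3% of all genes). They were 1 of 45 with the authors' scaling (beside 6.11%) and 4 of 45 at 1.5-fold (beside 12.5%). The median of the targets, 0.22, was -0.12 with library totals and 0.13 with the authors' scaling. Library totals move every ratio down by construction, with a median shift of -0.33. No paired analysis was possible because each treatment was 1 library. Counting error is small for 8 of the 9 genes, and the error between cultures was not measured.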

Other observations

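TP73, a member of the p53 gene family that can bind the same DNA sites, had 244 and 36 estimated counts in the DMSO and CB-5083 libraries, or 7.40 against 1.27 CPM (5.85-fold lower, 4.11 to 8.54). TP73 reached 5 CPM only in the DMSO library. Its log2 ratio was -1.89, and -2.14 with library totals, while TP63 was listed at 0 in both libraries. KITLG, encoding the ligand of the KIT receptor, was the most expressed of the p53 targets, at 1932 against 1026 CPM (1.88-fold lower, 1.86 to 1.91), and it passed 2-fold with library totals at -1.25 on the log2 scale.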
